A study of Mus musculus with 36 samples.

Results

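The experiment compared E18.5 mouse intestine of 2 genotypes that differed by the loss of Fadd. Both carried the Casp8 D387A knock-in, a caspase-8 altered at a site where the enzyme cuts itself, on both alleles, and both lacked Cflar, Mlkl and Casp1 (Casp8 D387A KI with Cflar KO, Mlkl KO and Casp1 KO, here Fadd-intact, n = 3). The second genotype also lacked Fadd (Fadd KO on top of these alleles, here Fadd-deficient, n = 3). These 6 of the 36 libraries in the series were chosen by the genotype in their labels, and every gene was a member, of which 18360 had enough reads to be tested. For levels, 3 intestines lacking only Mlkl (Mlkl KO, here Mlkl control) and 3 that lacked Ifnar1 on top of the Fadd-intact genotype (here Ifnar1-deficient) are given beside them. The fit also held 3 intestines with the Casp8 D387A KI alone and 3 with Casp8 D387A KI, Cflar KO and Mlkl KO, which makes 6 genotypes and 18 libraries, called the D387A set. All embryos were untreated. The mice had a C57BL/6N background, and the Cflar and Mlkl deletions of the line were bred from a mosaic founder made by genome editing in zygotes. The sample titles of the 2 genotypes carry different numbers, whose meaning the labels do not give, so whatever they mark and genotype cannot be told apart.

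FADD is the adaptor through which death receptors recruit caspase-8, by death effector domains that caspase-8 and its relative cFLIP (the product of Cflar) share. The complex can trigger apoptosis, restrain necroptosis, which MLKL executes, and carry signals that induce inflammatory genes. Caspase-1 is the inflammasome protease that matures interleukin-1 beta and cleaves gasdermin D, and IFNAR1 is a subunit of the type I interferon receptor. The late fetal intestine is lined by absorptive enterocytes with a brush border, and it normally expresses few of the genes that infection or inflammation induces.

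Reads on genes ran from 19871593 to 21057272 in the Fadd-intact and from 24382518 to 24600876 in the Fadd-deficient libraries. The intestinal markers were present in all 6 embryos. Cdx2, the intestinal identity factor, had 122, 137 and 124 RPKM (reads scaled to gene length and library size) in the Fadd-intact and 147, 136 and 129.7 in the Fadd-deficient embryos, and Fabp2, the intestinal fatty acid binding protein, lay between 2614 and 5946. Each genotype held 1 male and 2 female embryos by Y-linked and Xist reads. The third Fadd-intact embryo stood apart from its group. Its root mean square deviation from the group mean was 0.376 on the log2 scale, against 0.268 and 0.286 for the other two, and on the first 2 principal components it lay towards the Ifnar1-deficient embryos. For the main gene lists, and for many genes whose call or size rests on it, values are given without it and often against it alone. In that last fit the lone embryo is assumed to vary like the other groups.

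Fadd itself (chr7:144577318-144582463, GRCm38) had the lowest p of all genes tested. The Fadd-intact embryos had 9.63, 11.1 and 10.8 RPKM and the Fadd-deficient embryos 0.204, 0.259 and 0.169 (log2 fold change -5.63 ± 0.12 SE, adjusted p = 6.8e-15, edgeR quasi-likelihood test with Benjamini-Hochberg adjustment over all genes). The 3 Fadd-deficient libraries lay below all 15 others of the D387A set (exact permutation test, two-sided p = 0.00245, the smallest that 3 against 15 can give). Casp1 had at most 0.127 RPKM in either genotype, against 41.5, 42.6 and 44.4 in the Mlkl controls. Reads on Casp8 (25.8, 24.5 and 35.5 against 32.0, 35.7 and 33.6), Cflar (5.38, 6.03 and 6.04 against 5.57, 6.54 and 7.55) and Ifnar1 (23.1, 23.9 and 22.7 against 19.9, 21.3 and 22.3) did not pass the test, and reads on Casp8 and Cflar do not check their alleles. Reads on Mlkl rose although both genotypes carry its deletion. They were 3.13, 3.72 and 22.99 RPKM in the Fadd-intact and 27.6, 30.2 and 31.2 in the Fadd-deficient embryos (log2 fold change 1.58 ± 0.46 SE, adjusted p = 0.025), with the third Fadd-intact embryo close to the Fadd-deficient group. The change was 3.11 without the third Fadd-intact embryo and 0.37 against that embryo alone, where it was not called, and the call was also lost on leaving out the first or the second Fadd-intact embryo or the second or the third Fadd-deficient embryo. Of 11 tested genes near Fadd on chromosome 7, 0 were called by edgeR, DESeq2 or limma-voom with all embryos, and 4 had an unadjusted p under 0.05. Their log2 changes ran from -0.26 to 1.43, and without the third Fadd-intact embryo 1 was called higher.

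With Fadd lost, 470 genes were higher and 161 lower (adjusted p under 0.05 and a change of more than 1 on the log2 scale), which is 3.44% of the genes tested, 2.56% higher and 0.877% lower. In 591 of these 631 genes every embryo of one genotype lay above every embryo of the other, as in 29.6% of all genes tested. Most interferon-stimulated genes, some MHC class I presentation genes and some absorptive enterocyte genes were higher. Reg3g and Reg3b (regenerating islet-derived lectins), some oxidase genes, some NF-kB targets, some neutrophil-attracting chemokines and the mast cell genes tested were lower. Without the third Fadd-intact embryo 740 genes were higher (3.96%) and 167 lower (0.894%), and against it alone 307 were higher (1.58%) and 276 lower (1.42%). All 3 fits called 117 of the 470 higher genes (24.9%) and 66 of the 161 lower genes (41.0%). Labels such as rose, fell and called below mean that both thresholds were passed with all 6 embryos.

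**Figure D1:**
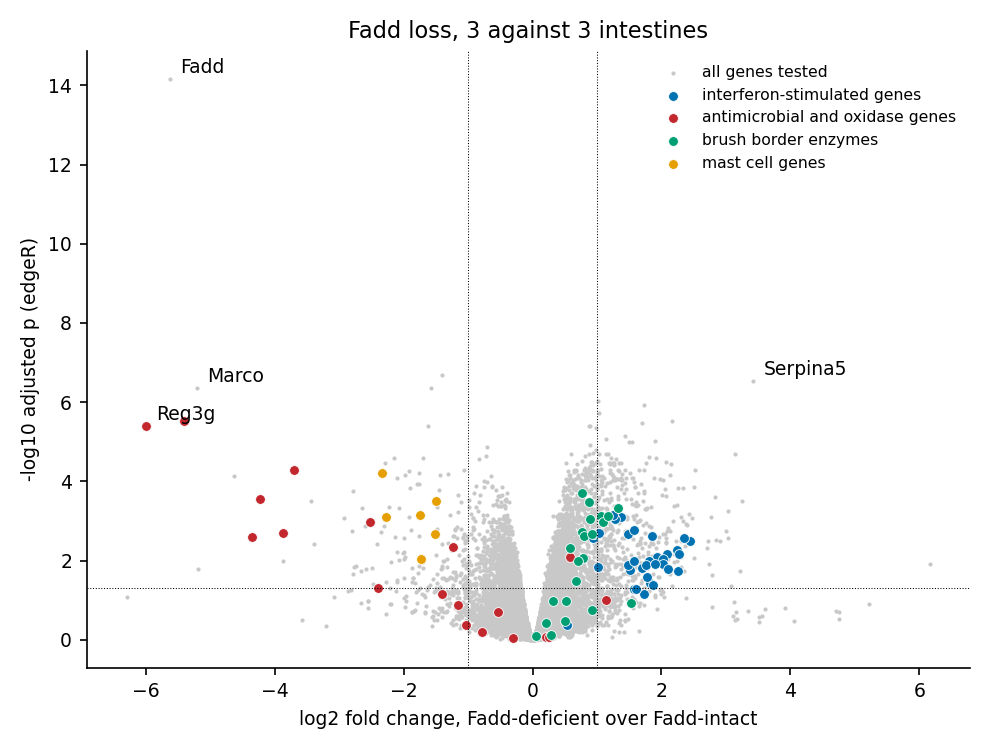
Each point is 1 of the 18360 genes tested, with the log2 fold change of the Fadd-deficient over the Fadd-intact intestines (3 each) on the x axis and −log10 of edgeR's adjusted p on the y axis; dotted lines mark the thresholds. Interferon-stimulated genes (blue) lie right of 0 and brush border enzymes (green) closer to it, while antimicrobial and oxidase genes (red) and mast cell genes (yellow) reach far to the left, with Reg3g at −6.01.

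Of the gene lists examined, interferon-stimulated genes had the most members that rose. These genes encode antiviral effectors and sensors that type I and type III interferons induce through factors that bind the interferon-stimulated response element (ISRE). Of 35 such genes tested, 29 were called higher and 0 lower, all 35 fold changes were above 0, and the median was 1.76 on the log2 scale against −0.03 for all genes tested. Mx1, a GTPase that blocks viral replication (chr16:97447035-97462907), had 8.39, 14.0 and 57.7 RPKM in the Fadd-intact, 113, 122 and 104 in the Fadd-deficient and 0.685, 1.13 and 1.06 in the Mlkl control embryos (log2 fold change 2.08 ± 0.48 SE, adjusted p = 0.0068). Ifit3, which binds in a complex to viral RNA (chr19:34583531-34588731), had 62.1, 89.6 and 313 against 788, 779 and 665 RPKM (log2 fold change 2.27 ± 0.52 SE, adjusted p = 0.0067). For both genes the groups did not overlap, and the third Fadd-intact embryo lay between the other two and the Fadd-deficient embryos. With it left out the changes were 3.33 for Mx1 and 3.29 for Ifit3, and against it alone 0.97 for Mx1 (not called) and 1.25 for Ifit3 (not called).

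The promoters of Ifit3 and Isg15, which encodes a ubiquitin-like modifier, are shown because both rose and both hold the ISRE letters. They are the 250 bases before the gene's start in RefSeq (GRCm38.p6), from chr19:34583279-34583528 on the plus strand and chr4:156200819-156201068 on the minus strand, written 5′ to 3′ with matches to GAAA, any 2 bases and GAAA on either strand in capitals. Ifit3 holds 2 matches and Isg15 3 that overlap.
Ifit3: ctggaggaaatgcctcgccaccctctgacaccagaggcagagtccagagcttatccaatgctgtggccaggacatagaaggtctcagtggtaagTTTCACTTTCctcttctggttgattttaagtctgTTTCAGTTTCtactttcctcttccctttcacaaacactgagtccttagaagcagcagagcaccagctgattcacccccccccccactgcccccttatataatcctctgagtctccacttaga
Isg15: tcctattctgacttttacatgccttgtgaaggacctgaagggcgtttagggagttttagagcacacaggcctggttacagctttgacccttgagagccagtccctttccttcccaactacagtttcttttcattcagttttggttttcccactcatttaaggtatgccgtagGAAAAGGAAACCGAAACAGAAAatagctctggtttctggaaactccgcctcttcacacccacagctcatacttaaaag
The letters stood in 20.5% of the 312 genes called higher that have a promoter in the table, in 4.27% of the 117 called lower, in 3.31% of the 12582 tested genes with one and in 3.46% of all 27025. Isg15 had 151, 186 and 1257 RPKM in the Fadd-intact and 2070.0, 2042 and 1679 in the Fadd-deficient embryos (log2 fold change 1.86 ± 0.60 SE, adjusted p = 0.04), a change that was 3.52 without the third Fadd-intact embryo and 0.62 (not called) against it alone.

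The step between the genotypes depended on which Fadd-intact embryos it was measured from. Over the list, the median log2 level relative to the Mlkl controls was 0.89, 1.28 and 3.31 in the Fadd-intact embryos and 4.12, 4.09 and 4.01 in the Fadd-deficient embryos, so the third Fadd-intact embryo was nearer to the latter. Without the third embryo 35 of 35 genes were called higher with a median of 3.01, and against it alone 2 were, with a median of 0.66. Oas3, which makes the 2-5A that activates RNase L, gave 2.25 with all embryos, 4.19 without the third Fadd-intact embryo and 0.94 against that embryo alone. Usp18, an inhibitor of interferon signalling, had 21.9, 29.1 and 135 against 301, 303 and 274 RPKM (log2 fold change 2.24 ± 0.50 SE, adjusted p = 0.0053), a change that was 3.52 without the third Fadd-intact embryo. Irf7, which amplifies interferon transcription, had 54.6, 75.9 and 422 against 595, 569.8 and 477 RPKM and missed the threshold (adjusted p = 0.054). Zbp1, a sensor of Z-form nucleic acids, did too (5.80, 7.87 and 75.0 against 97.3, 92.9 and 103 RPKM, adjusted p = 0.069). Both were called higher without the third Fadd-intact embryo, by 3.07 and 3.83.

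**Figure D2:**
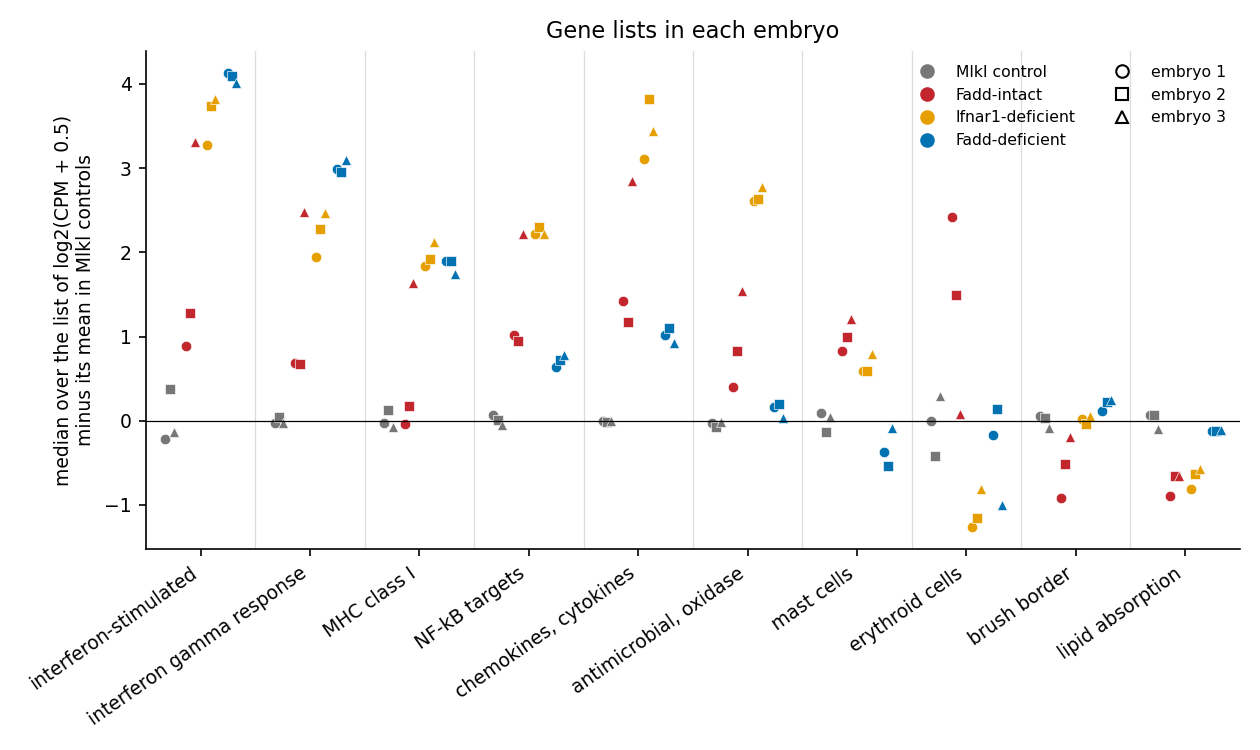
Each point is 1 embryo (circle, square and triangle for embryos 1, 2 and 3); the y axis is the median over a gene list of log2(CPM + 0.5) minus its mean in the Mlkl controls, for Mlkl control (grey), Fadd-intact (red), Ifnar1-deficient (yellow) and Fadd-deficient (blue) intestines. For interferon-stimulated genes the Fadd-deficient embryos sit at 4.01 to 4.12, above all others, whereas for antimicrobial and oxidase genes they sit at 0.04 to 0.19, near the controls.

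Genes of the interferon gamma response rose in part. They include the immunity-related GTPases and guanylate binding proteins, which attack vacuoles of intracellular pathogens, and many of them also answer type I interferon. Of 21 tested, 14 were called higher and 0 lower, with a median of 1.48. Of the fold changes 19 were above 0, and they ran from -3.20 (not called) to 2.90. Iigp1, one of these GTPases, had 5.33, 5.85 and 26.7 RPKM in the Fadd-intact and 68.9, 71.1 and 69.7 in the Fadd-deficient embryos (log2 fold change 2.47 ± 0.43 SE, adjusted p = 0.00083), and its change was 3.64 without the third Fadd-intact embryo and 1.39 against that embryo alone. Irgm1, a regulator of the family, had 34.2, 46.7 and 157 against 268, 294 and 309 RPKM (log2 fold change 1.87). Gbp2 had 5.62, 5.23 and 16.1 against 10.5, 12.4 and 9.67 and did not pass the test (adjusted p = 0.59). Several of these genes are near-identical copies, and reads may be split between them. Without the third Fadd-intact embryo the change of Irgm1 was 2.84 and 17 of the 21 were called higher, and against it alone 5 were.

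Genes of antigen presentation on MHC class I, which shows peptides from inside the cell to T cells, rose in part. Of 14 tested genes 7 were called higher and 0 lower, with a median of 1.03. Tap1, a subunit of the peptide transporter, had 18.4, 23.3 and 85.5 against 139, 138 and 119.7 RPKM (log2 fold change 1.64 ± 0.38 SE, adjusted p = 0.0063), and Psmb8, an immunoproteasome subunit, had 23.1, 29.0 and 112 against 173, 174 and 139.6 (log2 fold change 1.57). B2m, the light chain of class I molecules, had 548, 655 and 1649 against 2162, 2182 and 2011 (log2 fold change 1.16 ± 0.27 SE, adjusted p = 0.0077). In all these genes the third Fadd-intact embryo was far above the other two. When it was left out the changes were 2.66 for Tap1, 2.64 for Psmb8 and 1.82 for B2m. Without it 13 of 14 were called higher, and against it alone 0 were, with a median of 0.31. Of 9 MHC class II genes tested, 1 was called higher, the protease gene Ctss (1.47, and 2.06 without that embryo and 0.72, not called, against it alone).

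Reads on interferon genes themselves were few, and most lay in the Fadd-deficient embryos. Ifnb1, which encodes interferon beta (chr4:88522025-88522774), had 1, 0 and 2 reads in the Fadd-intact and 12, 26 and 11 in the Fadd-deficient libraries. Relative to all reads of the libraries this is 13.7-fold (exact 95% interval 4.42 to 68.7, counting error only). The genes for interferon lambda, the type III interferons that act mainly on epithelia, gave a like picture. Ifnl2 had 0, 0 and 1 against 16, 10 and 6 reads, and Ifnl3 had 0, 0 and 1 against 9, 18 and 8 reads. These genes are close copies, so reads may be split between them. Ifnb1 had 0 reads in all 3 Mlkl controls and 4, 2 and 8 in the Ifnar1-deficient embryos. These genes had too few reads for the filter. Without a filter, edgeR gave adjusted p = 0.00082 for Ifnb1, 0.0039 for Ifnl2 and 0.0023 for Ifnl3. Ifng, the interferon gamma gene, had at most 1 read in any of the 6 libraries.

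**Figure D3:**
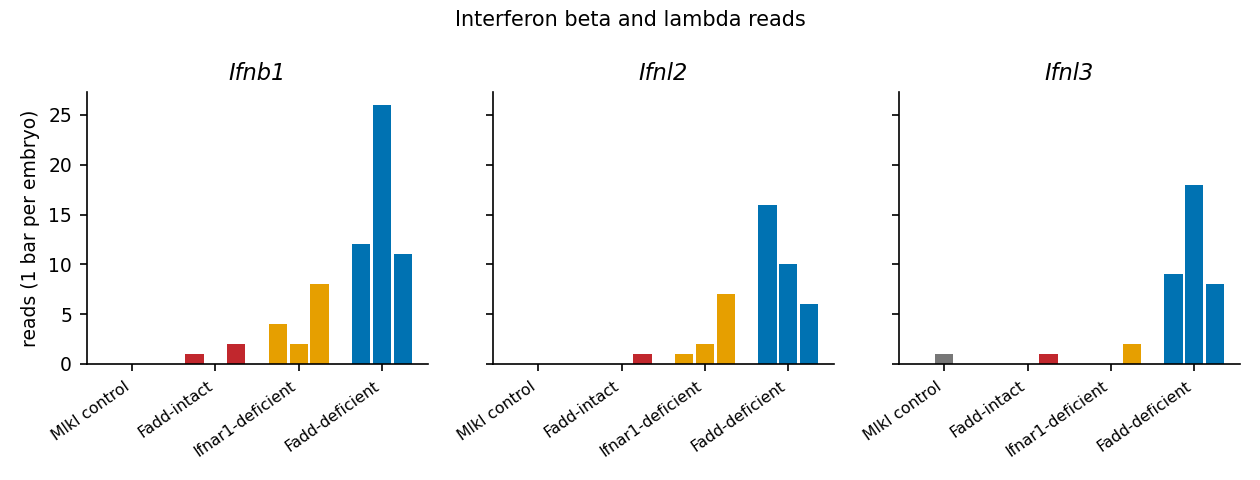
Bars are reads (y axis, linear from 0) on Ifnb1, Ifnl2 and Ifnl3, 1 bar per embryo, in the Mlkl control, Fadd-intact, Ifnar1-deficient and Fadd-deficient intestines. Each of the 3 genes has 6 to 26 reads in every Fadd-deficient embryo and at most 2 in any Fadd-intact embryo.

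Epithelial antimicrobial and oxidase genes made up 5 of the 10 largest falls. These genes can be switched on in the gut epithelium by microbes or cytokines. They encode secreted lectins, serum amyloid and enzymes that make reactive oxygen or nitric oxide. Of 19 tested, 9 were called lower and 0 higher (8 and 1 without the third Fadd-intact embryo, 12 and 0 against it alone), with a median of -1.23. Reg3g, a lectin that kills Gram-positive bacteria (chr6:78466269-78468872), had 153, 158 and 744 RPKM in the Fadd-intact and 5.05, 6.50 and 4.84 in the Fadd-deficient embryos (log2 fold change -6.01 ± 0.54 SE, adjusted p = 4e-06), a 64.3-fold lower level. Its neighbour Reg3b had 489, 471 and 1852 against 27.3, 23.4 and 15.2 RPKM (log2 fold change -5.41 ± 0.46 SE, adjusted p = 3e-06). Leaving out the third Fadd-intact embryo, the highest of its group for both, gave -4.83 for Reg3g and -4.45 for Reg3b. Like the Fadd-deficient embryos, the Mlkl controls were low, with 5.17, 3.41 and 4.15 and 45.7, 27.4 and 34.9 RPKM. Reg3g, Reg3b and Reg3a are related copies, and reads may be split between them.

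Oxidase genes were among those that fell. Nox1, an epithelial NADPH oxidase (chrX:134086421-134221956), had 1.53, 1.65 and 8.91 RPKM in the Fadd-intact, 0.104, 0.360 and 0.171 in the Fadd-deficient and 0.0984, 0.0615 and 0.0585 in the Mlkl control embryos (log2 fold change -4.23 ± 0.64 SE, adjusted p = 0.00028). Duox2, which makes hydrogen peroxide at the apical surface, had 1.11, 0.853 and 14.5 against 0.262, 0.344 and 0.199 (log2 fold change -4.35 ± 0.87 SE, adjusted p = 0.0026). Here the third Fadd-intact embryo was the high one, far above the others, and without it the fall was -1.87. Its maturation partner Duoxa2 had 1.94, 1.19 and 32.5 against 2.59, 2.79 and 1.32 RPKM (log2 fold change -2.40 ± 0.81 SE, adjusted p = 0.048), but the Fadd-deficient level overlapped the first and second Fadd-intact embryos, and without the third the change was 0.51 and not called. The Duoxa2 call was also lost with limma-voom (-0.95), a block for replicate number (-1.88) and embryo sex as a covariate (-2.20). It was lost as well with the 2 genotypes fitted alone and on leaving out any of the Fadd-deficient embryos. Nos2, the inducible nitric oxide synthase, had 8.17, 7.21 and 37.1 against 2.52, 3.03 and 3.54 (log2 fold change -2.53 ± 0.45 SE, adjusted p = 0.001), and Saa3, an acute phase protein, had 29.2, 23.8 and 96.7 against 4.71, 4.47 and 2.31 (log2 fold change -3.70). Leaving out the third Fadd-intact embryo gave -2.89 for Nox1, -1.34 for Nos2 and -2.79 for Saa3. For Nos2 and Saa3 the Fadd-deficient embryos were still above the Mlkl controls (0.211, 0.232 and 0.116 and 0.387, 0.242 and 0.192 RPKM).

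Some feedback genes and targets of NF-kB fell. NF-kB is the transcription factor that TNF and microbial sensors activate. Of 20 tested genes 5 were called lower and 0 higher, 19 fold changes were below 0, and the median was -0.65. Nfkbia, the inhibitor that NF-kB induces, had 58.1, 56.5 and 141 against 41.9, 36.6 and 34.6 RPKM (log2 fold change -1.18 ± 0.24 SE, adjusted p = 0.0028). Tnip3, an A20-binding inhibitor, had 0.462, 0.412 and 2.73 against 0.0767, 0.240 and 0.0218 (log2 fold change -3.39 ± 0.72 SE, adjusted p = 0.0038), and Mmp9, a gelatinase, 22.3, 21.5 and 32.3 against 6.58, 8.31 and 8.53 (log2 fold change -1.70 ± 0.18 SE, adjusted p = 2.5e-05). Without the third Fadd-intact embryo 2 of 20 were called lower (Mmp9 and Tnip3, the latter by -1.94), with a median of -0.20, and Nfkbia gave -0.61; against that embryo alone 12 were.

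Of the 12 chemokines and cytokines that the study singled out in related intestines of this series, 5 fell and 1 rose, while without the third Fadd-intact embryo 1 fell and 3 rose, and against it alone 7 fell and 0 rose. A list chosen on intestines of the same series is not independent evidence. Cxcl2, which attracts neutrophils (chr5:90903871-90905938), had 2.37, 1.81 and 7.28 RPKM in the Fadd-intact and 0.500, 0.544 and 0.780 in the Fadd-deficient embryos (log2 fold change -2.64 ± 0.42 SE, adjusted p = 0.00046). Cxcl1, its relative, had 1.34, 1.04 and 10.2 against 0.836, 0.692 and 0.323 (log2 fold change -2.74 ± 0.72 SE, adjusted p = 0.014), and Cxcl5 0.289, 0.285 and 1.60 against 0.112, 0.0558 and 0.139 (log2 fold change -2.76). Tnf was at 0.583, 0.658 and 3.64 against 0.405, 0.376 and 0.777 RPKM (log2 fold change -1.63 ± 0.54 SE, adjusted p = 0.046) and Il1b at 2.01, 1.39 and 3.48 against 0.588, 1.04 and 1.10 (log2 fold change -1.33). With the third Fadd-intact embryo left out the values were -0.94 for Cxcl1 (not called), -1.45 for Cxcl5 (not called), -0.26 for Tnf (not called) and -0.90 for Il1b (not called). Of these 5, Cxcl2 alone was also called without the third Fadd-intact embryo (-1.78). The call of Tnf was kept in 9 of 16 alternative fits. Ccl5, which attracts T cells and is also interferon-inducible, rose, with 2.14, 1.61 and 15.4 against 37.0, 39.5 and 17.6 RPKM (log2 fold change 2.31 ± 0.55 SE, adjusted p = 0.0083). Its change was 4.06 without the third Fadd-intact embryo, and 1.02 and not called against that embryo alone. Cxcl10, another interferon-inducible chemokine, had 25.5, 35.8 and 142 against 95.7, 99.2 and 92.8 RPKM and did not pass (adjusted p = 0.44). Its change was 1.65 without the third Fadd-intact embryo and -0.57 against that embryo alone. Of the study's 12 pathogen defense genes, chosen in the same way, Mx1 and Oas3 rose and Marco, Nox1, Nos2 and Mmp12 fell. The counts were 3 and 3 without the third Fadd-intact embryo, and against it alone 0 rose and 5 fell.

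The promoters of Cxcl1, Cxcl2 and Nfkbia are shown because these genes fell and hold the NF-kB letters (GGGA, any 2 bases and TTCC), on either strand in capitals. They are again the 250 RefSeq bases before the start, from chr5:90890995-90891244 on the plus strand, chr5:90903649-90903898 on the plus strand and chr12:55492648-55492897 on the minus strand.
Cxcl1: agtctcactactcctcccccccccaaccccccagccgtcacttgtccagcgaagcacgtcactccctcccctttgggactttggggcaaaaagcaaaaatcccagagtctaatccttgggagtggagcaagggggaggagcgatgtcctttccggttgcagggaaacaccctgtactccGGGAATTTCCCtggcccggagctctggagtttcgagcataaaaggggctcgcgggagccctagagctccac
Cxcl2: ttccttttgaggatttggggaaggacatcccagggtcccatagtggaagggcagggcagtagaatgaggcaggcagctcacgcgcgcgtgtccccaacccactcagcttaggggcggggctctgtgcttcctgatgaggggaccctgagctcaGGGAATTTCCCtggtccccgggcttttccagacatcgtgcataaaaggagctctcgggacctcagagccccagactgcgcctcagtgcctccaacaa
Nfkbia: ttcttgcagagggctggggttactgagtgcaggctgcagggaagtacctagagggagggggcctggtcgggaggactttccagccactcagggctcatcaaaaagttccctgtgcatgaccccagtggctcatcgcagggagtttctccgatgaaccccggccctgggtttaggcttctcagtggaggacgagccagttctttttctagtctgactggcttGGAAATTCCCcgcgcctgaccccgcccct
The letters stood in 5.98% of the 117 genes called lower with a promoter, in 1.60% of the 312 called higher and in 1.52% of the 12582 tested. Of the 250 bases before Reg3g, Reg3b, Nox1 and Duox2, none hold either set of letters.

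**Figure D4:**
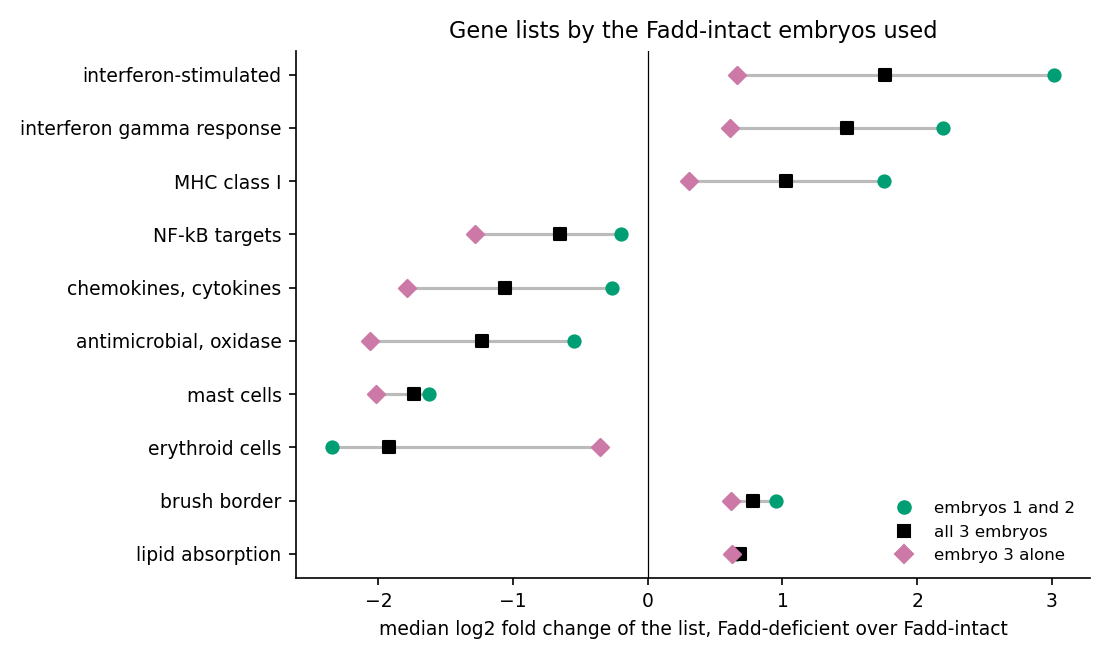
The x axis is the median log2 fold change of each gene list, Fadd-deficient over Fadd-intact, with the Fadd-intact group made of embryos 1 and 2 (green circle), all 3 (black square) or embryo 3 alone (pink diamond). Interferon-stimulated genes run from 0.66 to 3.01 and antimicrobial and oxidase genes from -2.06 to -0.55, whereas mast cell, brush border and lipid absorption genes move little.

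Beside the Mlkl controls, the gene lists of the Fadd-deficient intestines stood differently from each other. In the comparison of Fadd-deficient with Mlkl control, in which 3.78% of genes tested were called, 2.81% higher and 0.975% lower, all 35 interferon-stimulated genes were higher, with a median of 4.06. Of the 19 antimicrobial and oxidase genes 2 were higher and 0 lower, with a median of 0.18; Reg3g differed by 0.36 ± 0.54 SE. Of the 20 NF-kB genes 4 were higher (median 0.72). The Fadd-intact genotype, set against the same controls, had 4.34% of genes called, 2.16% higher and 2.18% lower. It gave 27, 10 and 13 higher genes in the 3 lists, with medians of 2.17, 1.27 and 1.53. The third Fadd-intact embryo raised these values. By embryo, the median levels relative to the controls were 0.89, 1.28 and 3.31 for interferon-stimulated genes. They were 0.40, 0.83 and 1.55 for antimicrobial and oxidase genes, and 1.02, 0.94 and 2.2 for NF-kB genes. For the study's 12 chemokines and cytokines, the Fadd-deficient embryos gave 7 higher and 0 lower (median 2.245) and the Fadd-intact 9 and 0 (3.14). For its 12 pathogen defense genes the counts were 5 and 0 (1.44) and 9 and 0 (3.79). The comparisons share groups and are given side by side only.

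Against the Ifnar1-deficient embryos, which lack the type I receptor on the same background, the lists differed from each other. That comparison called 5.99% of genes tested, 3.03% higher in the Fadd-deficient embryos and 2.96% lower. Of the 35 interferon-stimulated genes 2 were higher and 0 lower, with a median of 0.60. Of the antimicrobial and oxidase genes 15 of 19 were lower (median -3.23), and of the NF-kB genes 13 of 20 (median -1.46). Reg3g had 2310.4, 2440.5 and 2084 RPKM and Cxcl2 6.21, 7.03 and 7.41 in the Ifnar1-deficient embryos. The 3 Ifnar1-deficient embryos were male, so sex and genotype are partly mixed there.

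**Figure D5:**
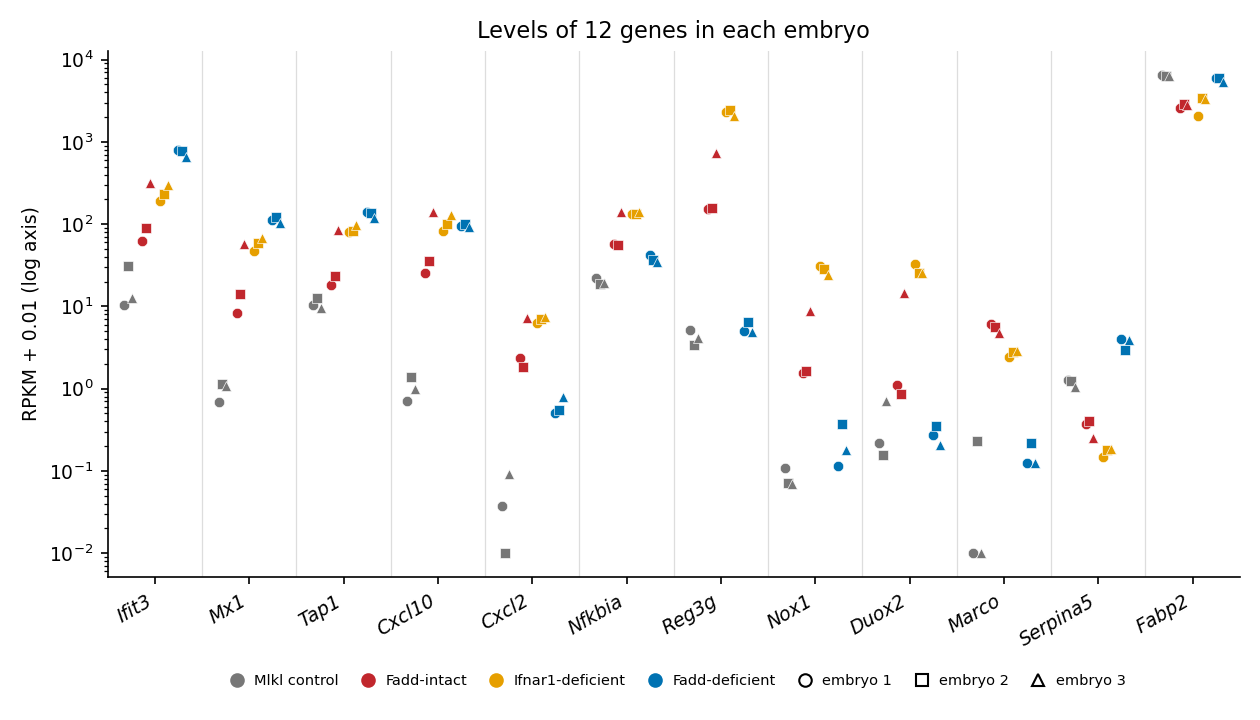
RPKM + 0.01 (y axis, log scale) of 12 genes in each embryo of 4 genotypes, with circle, square and triangle for embryos 1, 2 and 3. Ifit3, Mx1 and Tap1 are highest in the Fadd-deficient embryos (blue). In these embryos Reg3g, Duox2 and Marco lie near the Mlkl controls (grey), Nox1 lies above those controls, and Serpina5 lies above all other groups.

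Some absorptive enterocyte genes rose, by smaller amounts. Of 22 brush border enzymes and structural genes, 4 were called higher and 0 lower, all 22 fold changes were above 0, and the median was 0.78. Without the third Fadd-intact embryo 10 of the 22 were called higher, and against it alone 1 was. Anpep, aminopeptidase N, had 269, 326 and 576 RPKM in the Fadd-intact and 951, 966 and 1033 in the Fadd-deficient embryos (log2 fold change 1.33 ± 0.21 SE, adjusted p = 0.00046), and Mep1b, a meprin subunit, 81.5, 92.1 and 164 against 254, 254 and 251 (log2 fold change 1.17). Against it alone the values were 0.77 for Anpep (not called) and 0.62 for Mep1b (not called). Of 17 lipid absorption genes 4 were called higher (5 without the third Fadd-intact embryo, 2 against it alone) and all 17 lay above 0 (median 0.68).  Fabp2 had 2614, 2890.4 and 2840.2 against 5946, 5945 and 5304 RPKM (log2 fold change 1.04 ± 0.17 SE, adjusted p = 0.00058), with 6579, 6418 and 6427 in the Mlkl controls. Abcg8, which returns sterols to the lumen, had 5.37, 5.84 and 7.77 against 11.2, 17.5 and 20.2 (log2 fold change 1.36).

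Leap2, an antimicrobial peptide and ghrelin antagonist of enterocytes and liver, had 63.4, 65.9 and 46.0 RPKM in the Fadd-intact, 268, 261 and 181 in the Fadd-deficient and 258, 269 and 321 in the Mlkl control embryos (log2 fold change 2.02 ± 0.39 SE, adjusted p = 0.0021). Of 18 enterocyte solute carriers 2 were higher (Slc3a1, 1.16, and Slc5a1, 1.02), against 5 without the third Fadd-intact embryo and 1 against it alone. Of 10 genes of endocytic fetal enterocytes 2 were higher (the lysosomal proteases Ctsl, 1.24, and Lgmn, 1.06). Of 11 cytochrome P450 genes 2 were higher, Cyp2c55 (1.30) and Cyp3a13 (1.02). Of 10 bile acid genes 0 were called with all embryos, and 4 were higher and 1 lower without the third Fadd-intact embryo. Against the third Fadd-intact embryo alone the values were 0.84 for Slc3a1 (not called), 0.77 for Slc5a1 (not called), 0.33 for Lgmn (not called), 0.62 for Cyp2c55 (not called) and 0.56 for Cyp3a13 (not called). Of 16 enterocyte transcription factors 0 were called. Of these and the bile acid genes together, 13 had an unadjusted p under 0.05, DESeq2 called 0 and limma-voom 2. Hnf4a, the nuclear receptor that maintains enterocyte genes, had 124, 142 and 159 against 166, 165 and 179.6 RPKM (log2 0.27, adjusted p = 0.11). Whole intestine was measured, so more enterocytes and more RNA per enterocyte cannot be told apart. The general epithelial marker Epcam had 472, 521 and 687 against 842, 796 and 720.0 RPKM (log2 0.49, adjusted p = 0.0077), which did not reach the fold threshold.

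Of the goblet cell (12 tested), stem cell (13) and cell cycle (20) genes, 0 were called by edgeR with all embryos. The stem cell marker Lgr5 changed by 0.15 (adjusted p = 0.7) and the proliferation marker Mki67 by -0.27 (adjusted p = 0.21). Over these lists and those for fibroblasts, smooth muscle, endothelium, and enteric neurons and glia (86 genes), 22 had an unadjusted p under 0.05, and DESeq2 called 0 and limma-voom 1. All 12 goblet cell genes lay below 0, with a median of -0.36, and the genotypes overlapped for each. Of the 20 cell cycle genes 1 lay above 0, with a median of -0.22, and the genotypes did not overlap for 14, against 29.6% of all genes. Against the third Fadd-intact embryo alone 2 goblet cell genes were called lower. The lists for those other tissues had medians between -0.20 and -0.02.

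Among genes of immune cells, those of mast cells, which store proteases in granules, were lower for each marker tested. Whole intestine was measured, so fewer mast cells and less RNA per mast cell cannot be told apart. All 6 proteases tested fell, with a median of -1.74, while 0.877% of all genes tested were called lower. The genotypes overlapped for none of the 6, and in 29.6% of all genes tested they did not overlap. Mcpt4 had 3.26, 2.54 and 4.62 RPKM in the Fadd-intact and 0.850, 0.711 and 0.488 in the Fadd-deficient embryos (log2 fold change -2.34 ± 0.29 SE, adjusted p = 6.3e-05), and Cma1 had 2.92, 3.05 and 3.46 against 1.11, 0.532 and 1.15 (log2 fold change -1.75). All 6 were called without the third Fadd-intact embryo and against it alone. Their summed level was 21.5 to 33.4 CPM (reads scaled to library size alone) in the Fadd-intact, 6.07 to 9.75 in the Fadd-deficient and 9.88 to 11.6 in the Mlkl control embryos.

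Marco and Cd5l, genes of tissue macrophages, fell, while most macrophage markers did not pass the test. Marco, which binds bacteria and particles (chr1:120474538-120505024), had 6.12, 5.58 and 4.73 RPKM in the Fadd-intact and 0.115, 0.206 and 0.114 in the Fadd-deficient embryos (log2 fold change -5.21 ± 0.38 SE, adjusted p = 4.4e-07), a 37.1-fold lower level, with 0, 0.218 and 0 in the Mlkl controls. Cd5l, a protein that macrophages secrete, had 4.24, 1.52 and 3.21 against 0.370, 0.281 and 0.173 (log2 fold change -3.43 ± 0.52 SE, adjusted p = 0.00031). In both the Fadd-intact embryos were all high, the third included. Of 14 macrophage and monocyte markers 1 was called, Lyz2 (-1.62), and their summed level was 581 to 895 CPM in the Fadd-intact and 675 to 711 in the Fadd-deficient embryos. Of 9 neutrophil markers 1 fell (Csf3r, -1.13), and of 8 markers of T and NK cells 1 rose (Gzma, 1.72). The lysozyme gene Lyz1 fell (-1.23). Lyz1 and Lyz2 are related copies, and reads may be split between them. Of 15 matrix metalloproteinase genes and inhibitors 5 fell, among them the macrophage elastase Mmp12 (-2.10) and matrilysin Mmp7 (-1.74); without the third Fadd-intact embryo 1 did, Mmp9. C5ar1, the C5a receptor (-1.76), and C3 (-1.54) fell and C2 rose (1.31) among 13 complement genes, of which 2 were higher and 1 lower without the third Fadd-intact embryo and 0 and 2 against it alone. Without that embryo the values were -1.35 for Mmp12 (not called), -0.60 for Mmp7 (not called), -0.48 for C3 (not called) and -0.98 for Csf3r (not called). Against it alone C2 gave 0.63 and was not called. The calls of Mmp12 and C3 were also lost on leaving out any of the Fadd-deficient embryos. Madcam1, an adhesion molecule through which lymphocytes enter the gut wall, fell by 1.41 on the log2 scale with all embryos and was called under every alternative.

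RNA of other tissues varied between embryos. Erythroid genes were called lower for 6 of 8 tested, with a median of -1.92. Their summed level was 4703 and 2314 CPM in the first and second Fadd-intact embryos and 821 in the third, against 378 to 988 in the Fadd-deficient embryos, and against the third embryo alone 0 were called. Pancreatic acinar genes were high in the third Fadd-deficient embryo, with a summed 120.4 CPM against 16.2 and 18.9 in the other two, and Ctrb1 was called higher on that embryo (2.27, 3.11 and 46.9 RPKM). The call of Ctrb1 was kept in 7 of 16 alternative fits and was lost without the third Fadd-intact embryo. Of 8 hepatocyte markers 2 were higher, Afp (1.53) and Ttr (1.28), both also made by fetal gut, and the summed level was 441 to 651 CPM in the Fadd-intact and 1084 to 1556 in the Fadd-deficient embryos. The part of these differences in the enterocyte and immune results was not tested.

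Of 19 tested genes of the death receptor complex, 2 rose and 2 fell, Fadd itself included. Without the third Fadd-intact embryo 2 rose and 1 fell, and against it alone 1 rose and 4 fell. Tnfsf10, which encodes the death ligand TRAIL and is interferon-inducible, had 5.54, 8.31 and 13.1 RPKM in the Fadd-intact and 28.6, 37.4 and 34.01 in the Fadd-deficient embryos (log2 fold change 1.89 ± 0.25 SE, adjusted p = 8.5e-05), and the others were Mlkl, Fadd and Tnf, given above. Without that embryo Mlkl gave 3.11 and Tnf -0.26 (not called). Of 19 inflammasome and pyroptosis genes Il1b was the one called, and without the third Fadd-intact embryo it was not, while Casp4 (1.19) and Gsdmc4 (1.79) were higher. The stress-induced factors Atf3 (1.02) and Ddit3 (1.02) rose among 12 genes of the unfolded protein and integrated stress responses, of which 3 were higher without the third Fadd-intact embryo and 0 against it alone (1.72 for Atf3 and 1.70 for Ddit3 without it). The p53 target and immediate early lists had 0 calls of 12 and 10 by edgeR, DESeq2 or limma-voom, and 9 of these 22 had an unadjusted p under 0.05.

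Several of the largest changes lay outside these lists. Serpina5, a protease inhibitor (chr12:104101113-104106137), had 0.357, 0.395 and 0.243 RPKM in the Fadd-intact, 3.99, 2.91 and 3.92 in the Fadd-deficient and 1.28, 1.24 and 1.04 in the Mlkl control embryos (log2 fold change 3.43 ± 0.21 SE, adjusted p = 3e-07), and its change was 3.25 without the third Fadd-intact embryo and 3.88 against that embryo alone. Slc5a12, a sodium-coupled lactate transporter, had 0.0627, 0.112 and 0.500 against 1.28, 1.32 and 3.75 (log2 fold change 3.25), with the third Fadd-deficient embryo highest. Plscr2, a phospholipid scramblase gene, had 0.617, 0.835 and 2.27 against 8.49, 12.3 and 11.9 (log2 fold change 3.14). Slco4c1, an organic anion transporter, rose by 2.83, and Acot12, an acetyl-CoA hydrolase, by 2.50. The 4 unnamed or predicted genes completed the 10 largest rises with Iigp1, from 2.71 to 3.03. With the third Fadd-intact embryo left out the rises were 4.58 for Slc5a12, 3.90 for Plscr2, 3.68 for Slco4c1 and 3.30 for Acot12. Among the falls, Pigz, a mannosyltransferase of the GPI anchor pathway, had 4.16, 3.15 and 11.9 against 0.953, 1.07 and 0.764 RPKM (log2 fold change -2.78 ± 0.40 SE, adjusted p = 0.00018). Its change was -1.98 without the third Fadd-intact embryo and -3.68 against that embryo alone. Ttn, the giant muscle protein, had at most 0.0604 RPKM in any of the 6 embryos and fell by 4.63 on the log2 scale.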

How the data were processed

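RNA from whole E18.5 mouse intestine was sequenced, 1 library per embryo. The authors aligned single-end reads to GRCm38 with GSNAP and deposited, for each library, read counts per gene, the width of each gene model and RPKM. The deposited counts were analysed. Whether counting used strand is unclear, because the labels and the methods name different library kits, so a gene and an antisense partner cannot be told apart. All 18 D387A-set intestine libraries (17943524 to 27721024 reads on genes) were fitted together with edgeR 4.0.16 (genes kept by filterByExpr at 10 reads, TMM scaling, quasi-likelihood test, Benjamini-Hochberg adjustment), so the 6 genotypes share 1 estimate of the spread. A gene was called at an adjusted p under 0.05 and a log2 change beyond 1. The printed RPKM were recomputed from the deposited counts and widths with TMM library sizes. limma 3.58.1 (voom) and DESeq2 1.42.0 were alternatives. The scripts were tested on simulated counts.

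Named genes were the targeted genes, the genes the study names, the 10 largest rises and falls with groups that do not overlap and at least 5 CPM, up to 4 members per list and 8 fixed genes; others are marked as chosen after their values were seen or are list members. The genes and the 53 lists were chosen with earlier results of these data known. Identity, sex and library depth were checked. Some genes that the rule chose are not reported here. The remaining 18 libraries of the series were not used here.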

Additional observations from a re-analysis of the deposited data

How the results depend on the processing

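All 103 genes called with all embryos and chosen for naming kept their direction under every alternative that gave them a value. The exception was Duoxa2, which gave 0.51 without the third Fadd-intact embryo. DESeq2 gave a value for 99 of the 103, the filter at a mean of 50 reads for 94 and the fit of the 2 genotypes alone for 102. Of these genes, 39 stayed past both thresholds in each alternative that gave them a value. Among them were Fadd, Reg3g, Reg3b, Nox1, Marco, Cxcl2, Mmp9, Serpina5, Iigp1, Tlr3 and Tnfsf10. Fewer libraries or genes entered the alternatives that moved the counts most. Fitting the 2 genotypes alone gave 322 calls in place of 631, 253 higher and 69 lower, and 456 in place of 796 for Fadd-intact against Mlkl control, 186 of them higher. A filter at a mean of 50 reads left 95 lower genes in place of 161, 89 in place of 179 for Fadd-deficient against Mlkl control, 524 in all and 235 lower for Fadd-intact against Mlkl control, and 688 in all, 366 higher and 322 lower, against the Ifnar1-deficient embryos. An alternative chosen after seeing the data, the third Fadd-intact embryo alone, gave 307 higher and 276 lower.

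Leaving out 1 library at a time gave 476 to 907 calls, 318 to 740 higher and 118 to 187 lower. The first Fadd-intact embryo left out gave the 318, and the third the 740. For Fadd-intact against Mlkl control the range was 596 to 990, with 247 to 511 higher and 335 to 479 lower, and the 247 came without the third Fadd-intact embryo. The ranges were 622 to 690 for Fadd-deficient against Mlkl control and 978 to 1192 against the Ifnar1-deficient embryos. Some genes turned in direction, all but Duoxa2 not called with all embryos. Against the third Fadd-intact embryo alone Casp8 gave -0.073, Cxcl10 -0.57, Cxcl11 -0.56 and Gbp2 -0.57. With 1 library left out at a time Gbp2 gave -0.00065 to 1.00, Lgr5 -0.0011 to 0.34 and Duoxa2 -2.94 to 0.51, the negative Gbp2 value without the second Fadd-intact and the negative Lgr5 value without the second Fadd-deficient embryo. The cause was not tested.

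The replicate numbers are shared between the genotypes, but deviations from the group mean correlated at -0.097, -0.278 and -0.074 between embryos of the same number, so the numbers do not pair them. A replicate block gave 633 calls, 481 higher and 152 lower. The alternative tools and scalings (DESeq2, limma-voom, DESeq2's size factors, embryo sex as a covariate, no filter) stayed within 1.5 times each count. The number of embryos and the few reads on interferon genes limit what these data can show, and genes with few reads throughout the D387A set were not tested.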

Other observations

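The butyrophilin-like genes, whose products on villus enterocytes act on intraepithelial gamma delta T cells, are described here with other genes chosen after their values were seen. Btnl1 had 42.8, 61.1 and 70.0 RPKM in the Fadd-intact and 129, 148 and 164 in the Fadd-deficient embryos (log2 fold change 1.34 ± 0.16 SE, adjusted p = 5.4e-05), and 81.6, 85.5 and 76.0 in the Mlkl controls. Btnl6 had 45.3, 59.7 and 59.1 against 113, 127 and 149.9 (log2 fold change 1.25 ± 0.17 SE, adjusted p = 9.5e-05), and Btnl2 21.8, 34.2 and 42.7 against 69.1, 74.0 and 83.8 (log2 fold change 1.20). The genes are related copies, and reads may be split between them. For all 3 the lowest Fadd-deficient embryo was above the highest Fadd-intact embryo. In 29.6% of all genes tested these 2 genotypes did not overlap. It was also above the highest Mlkl control embryo for all 3. Against those controls the changes were 0.86 for Btnl1, 0.82 for Btnl2 and 0.88 for Btnl6, all below the fold threshold and not called. Il15, a cytokine that sustains such lymphocytes, had 3.11, 3.36 and 3.83 against 7.39, 8.33 and 7.19 RPKM (log2 fold change 1.15 ± 0.19 SE, adjusted p = 0.00061). Against the third Fadd-intact embryo alone the values were 0.82 for Btnl2 (not called) and 0.99 for Il15 (not called).

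Fbp1, Gatm and Pck1, metabolic genes chosen after their values were seen, lay between the Fadd-intact and Mlkl control levels. Fbp1, a gluconeogenic phosphatase, had 20.3, 24.9 and 13.0 RPKM in the Fadd-intact, 80.8, 75.8 and 61.4 in the Fadd-deficient and 205, 185 and 202 in the Mlkl control embryos (log2 fold change 1.91 ± 0.18 SE, adjusted p = 9.6e-06). Gatm, the first enzyme of creatine synthesis, had 11.5, 7.07 and 12.9, 41.2, 35.7 and 29.5 and 88.7, 68.8 and 111 RPKM (log2 fold change 1.76). Pck1, which makes phosphoenolpyruvate, had 20.2, 30.6 and 15.2, 38.2, 45.4 and 64.6 and 122, 116 and 119 (log2 fold change 1.17). All 3 were still called lower in the Fadd-deficient than in the Mlkl control embryos, with log2 differences of -1.44, -1.34 and -1.27. Summed hepatocyte markers were 441 to 651 CPM in the Fadd-intact, 1084 to 1556 in the Fadd-deficient and 1092 to 1812 in the Mlkl control embryos. Whether liver RNA has a part in these 3 genes was not tested. Without the third Fadd-intact embryo the rise of Pck1 was 0.96 and not called. Ppargc1a, a coactivator of mitochondrial and gluconeogenic genes, had 2.49, 3.05 and 2.15 against 4.49, 5.10 and 6.11 RPKM (log2 fold change 1.03 ± 0.15 SE, adjusted p = 0.00025) and 3.24, 3.49 and 3.02 in the Mlkl controls, below the Fadd-deficient embryos. Its change without the third Fadd-intact embryo was 0.92 and not called.

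Further immune genes outside the lists moved in both directions. Tlr3, a sensor of double-stranded RNA, had 1.35, 1.24 and 2.59 against 4.52, 5.80 and 5.94 RPKM (log2 fold change 1.65 ± 0.20 SE, adjusted p = 5.2e-05), and Cd274, which encodes PD-L1, 3.72, 3.80 and 10.4 against 15.1, 21.5 and 20.4 (log2 fold change 1.67 ± 0.29 SE, adjusted p = 0.00093). Ifi204, of a family of DNA-binding proteins with many close copies, had 5.45, 7.09 and 41.6 against 95.01, 102 and 82.0 (log2 fold change 2.37 ± 0.51 SE, adjusted p = 0.0044). Leaving out the third Fadd-intact embryo gave 2.34 for Cd274 and 3.89 for Ifi204, and against it alone Cd274 gave 0.87 and was not called. Ccl2, which attracts monocytes, had 6.21, 4.37 and 10.97 against 2.01, 1.84 and 1.24 RPKM (log2 fold change -2.07 ± 0.33 SE, adjusted p = 0.00046). Gpr84, a receptor for medium-chain fatty acids on myeloid cells, had 1.20, 1.22 and 1.29 against 0.314, 0.199 and 0.227 (log2 fold change -2.31 ± 0.42 SE, adjusted p = 0.0013), and Chil1, a chitinase-like protein, 0.680, 0.742 and 1.77 against 0.205, 0.159 and 0.0453 (log2 fold change -2.93). The last 3 were called lower with and without the third Fadd-intact embryo.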
